A study of Mus musculus with 28 samples.

Results

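Cortical interneurons, the inhibitory neurons that act within the cortex, make short signalling peptides beside their transmitter GABA, and which peptide a cell makes is one of the main ways to tell interneuron subclasses apart. The 9 precursor genes described here were chosen by name, with earlier results of these data known. They include Sst (somatostatin), Npy (neuropeptide Y), Cort (cortistatin), Vip (vasoactive intestinal peptide) and Cck (cholecystokinin). The others are Tac1 (substance P and neurokinin A), Tac2 (neurokinin B), Crh (corticotropin-releasing hormone) and Pnoc (nociceptin). All 9 were found among the 41549 genes of the count tables. Each is made as a larger precursor that convertases cut and other enzymes trim and amidate, is stored in dense-core vesicles, and acts on G protein-coupled receptors after release. Sst, with much of Npy and Cort, marks the somatostatin subclass, Vip the subclass that inhibits other interneurons, and Npy is also made by neurogliaform cells. Cck marks a class of basket cells but is also transcribed by many excitatory neurons, and Tac1 is found in parvalbumin cells of the cortex and in projection neurons of the striatum below it.

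RNA was counted in 28 libraries of sorted motor cortex nuclei, which came from 7 mice with the numbers 17 to 23. Every mouse received AAV-Cas9-miR-124-empty in the left hemisphere and AAV-Cas9-miR-124-g4 in the right. These are adeno-associated virus vectors for the nuclease Cas9, named for the neuronal microRNA miR-124, and are called empty and g4 below. Nuclei were sorted by an HA tag into HA-positive nuclei, which carry Cas9, and HA-negative nuclei, so that the 4 groups (empty HA-negative, g4 HA-negative, empty HA-positive and g4 HA-positive) had 7 libraries each, 1 per animal. All groups come from injected tissue, and none is from an uninjected animal. Vector and hemisphere coincide in every animal and cannot be told apart. The sources used here do not give the strain, the age, the time after injection, the promoter that drives Cas9 or the meaning of g4. Levels are counts scaled to the library size (CPM), and a gene was called at an adjusted p under 0.05 by the quasi-likelihood test of edgeR, with Benjamini-Hochberg adjustment over all tested genes. Every adjusted p below comes from that test unless another is named. Levels are mean ± SD with n = 7, and each log2 fold change stands with its standard error (SE).

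Libraries held 248612 to 902944 counts and 8687 to 13668 detected genes. Under 10000 genes were detected in 3 empty HA-positive libraries (animals 17, 21 and 22) and in 1 g4 HA-positive library (animal 18). The g4 HA-positive library of animal 19 stood apart. It held both Xist (646 CPM) and Y-linked transcripts (48.1 CPM), whereas the other libraries of animal 19 held no Xist, and its summed oligodendrocyte genes stood at 1568 CPM against at most 233 in the other g4 HA-positive libraries. The main results on the g4 HA-positive group are therefore also given without it. A sample of nuclei gives the level of a gene over all nuclei sorted, so that fewer nuclei of a subclass and less RNA per nucleus cannot be told apart.

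Of the 9 genes, Sst and Npy had the highest mean levels per exon length (CPM per kb) in all 4 groups. In empty HA-positive nuclei Sst stood at 584 ± 174 CPM per kb, Npy at 381 ± 123 and Cck at 86.9 ± 48.1, followed by Tac1 at 26.0 ± 14.2, Cort at 16.0 ± 10.9, Vip at 11.0 ± 11.1, Pnoc at 7.15 ± 6.66, Crh at 3.09 ± 2.95 and Tac2 at 1.28 ± 2.34. Of neighbours in that order, Npy and Cck were the sole pair whose ranges of mean ± SD did not overlap. In g4 HA-positive nuclei the order began Sst (514 ± 110), Npy (303 ± 87.3), Cck (92.6 ± 27.0), Cort (38.1 ± 9.96) and Tac1 (21.8 ± 4.53), each apart from the next by more than the SDs, and went on with Vip (19.5 ± 4.74), Crh (9.20 ± 6.04), Pnoc (4.58 ± 3.11) and Tac2 (2.44 ± 2.88), whose ranges overlapped from Tac1 onward. HA-negative nuclei were less steep at the top, with Sst at 127 ± 28.9 and 117 ± 42.1, Npy at 86.5 ± 37.2 and 77.9 ± 17.6, and Cck at 71.4 ± 13.8 and 76.6 ± 31.4 CPM per kb with the empty and the g4 vector. Neighbours among these 3 overlapped with both vectors, while the ranges of Sst and Cck did not overlap with the empty vector. The length of Vip includes an annotated transcript that retains introns, which lowers its value per kb. Tac1 has nearly the same exon length (3399 bases, against 3402 for Vip and 677 for Cort). The order of Cort and Tac1 in g4 HA-positive nuclei depends on these lengths, since in CPM Tac1 stood at 74.1 and Cort at 25.8.

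**Figure D1:**
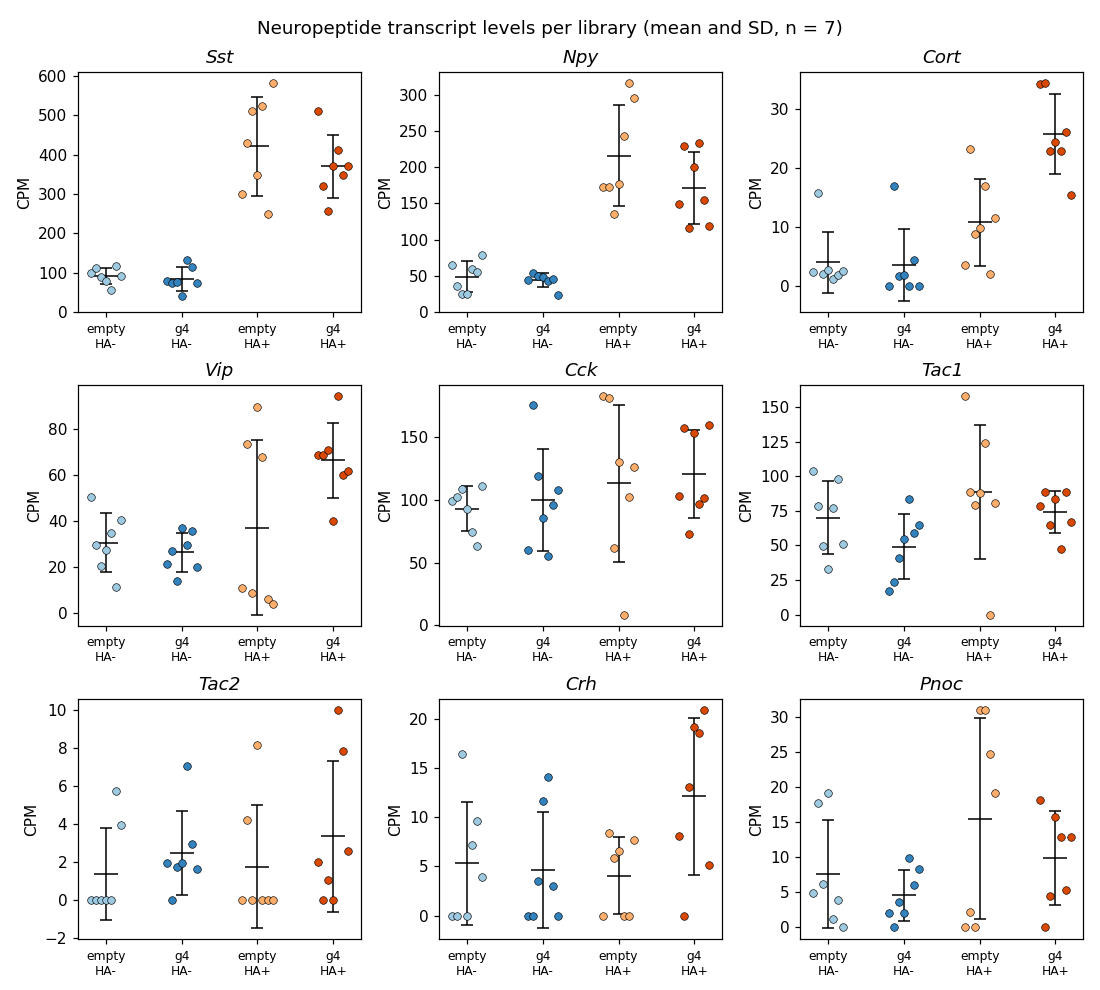
Level of each of the 9 neuropeptide precursor genes in every library, in CPM on a linear axis that differs between panels. Points are libraries, the horizontal line and bars are the mean and SD of 7 libraries per group, and the 14 HA-positive points of Sst and of Npy lie above every HA-negative point, while empty HA-positive Vip splits into 4 low and 3 high points.

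The Sst promoter holds the palindrome from which the cyclic AMP response element was first defined, the site bound by the transcription factor CREB. The 120 bases just before the RefSeq start are shown for the 4 genes that were called in a comparison below, 5′ to 3′ on the strand of the gene (RefSeq, GRCm38.p6), with matches to TGACG or its reverse complement CGTCA in capitals. The windows are chr16:23890845-23890964 (minus strand) for Sst, chr6:49822590-49822709 (plus) for Npy, chr4:149126764-149126883 (minus) for Cort and chr10:5639098-5639217 (plus) for Vip.
Sst: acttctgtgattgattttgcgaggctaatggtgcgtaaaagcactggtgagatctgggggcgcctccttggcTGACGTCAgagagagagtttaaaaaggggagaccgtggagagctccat
Npy: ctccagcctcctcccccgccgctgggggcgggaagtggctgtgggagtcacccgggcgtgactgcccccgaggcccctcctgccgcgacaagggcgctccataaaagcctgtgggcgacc
Cort: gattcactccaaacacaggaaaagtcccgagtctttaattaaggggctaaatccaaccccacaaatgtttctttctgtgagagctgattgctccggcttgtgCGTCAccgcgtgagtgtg
Vip: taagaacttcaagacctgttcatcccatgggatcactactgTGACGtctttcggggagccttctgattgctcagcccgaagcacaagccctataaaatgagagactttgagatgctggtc
The whole element TGACGTCA was found in Sst, beginning 48 bases before the start, and the half-site once in Cort, 18 bases before it, and once in Vip, 79 bases before it. The 2 half-sites of the Sst element overlap each other. Over all 32851 promoters of the table, each searched on both strands from 250 bases before to 50 after the start, 1.79% held the whole element and 20.8% the half-site. Within that longer window Cck held 1 half-site, Tac1 held 2, and Npy and Tac2 none. A match or its absence in this window is a description of the letters and shows nothing about the factors that act on a gene. The GENCODE model of Sst begins 114 bases further upstream than the RefSeq start used here.

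The next question was whether nuclei that carried Cas9 differed in peptide transcripts from those that did not. Sst and Npy were higher in HA-positive than in HA-negative nuclei with both vectors, about 4-fold, in 7 of 7 animals each. Cort and Vip were called higher with the g4 vector. Cck and Tac1 did not pass the test with either vector, and Tac2, Crh and Pnoc had too few counts to be tested. Thus 2 of the 5 members tested were called higher with the empty vector, where 3.5% of all 5538 tested genes were called higher, and 3 of 5 with the g4 vector, where 3.32% of 6264 were, leaving out Cort, which entered the g4 test only through the group where it is high and was called as well. None was called lower, as 3.5% and 3.08% of the genes tested were. The median log2 fold change of the members tested was 0.35 with the empty and 1.32 with the g4 vector, again without Cort, against 0.01 over all genes tested in both.

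Among the somatostatin-subclass peptides, Sst encodes the inhibitory peptide released onto dendrites and lies at chr16:23889573-23890958 on the minus strand (GRCm38, GENCODE release M21). Its level in empty HA-negative libraries ran from 55.2 to 117 CPM with a median of 90.5, and in empty HA-positive libraries from 249 to 584 CPM with a median of 430. With the g4 vector the HA-negative libraries ran from 40.9 to 133 CPM (median 76.3) and the HA-positive ones from 257 to 512 CPM (median 371). The lowest HA-positive library was thus above the highest HA-negative library with either vector, a separation in the same direction seen for 1.25% of genes tested with the empty and 1.09% with the g4 vector. The log2 fold change was 2.22 ± 0.19 (adjusted p = 2.55e-09) with the empty vector and 2.10 ± 0.19 (adjusted p = 1.06e-08) with g4, which corresponds to means of 421 ± 126 against 91.6 ± 20.8 CPM and 370 ± 79.3 against 84.7 ± 30.4 CPM. Leaving out animal 19's g4 HA-positive library gave a g4 value of 2.18 ± 0.18. Within single animals the HA-positive level was 2.13 to 9.50 times the HA-negative level with the empty vector (median 4.41) and 3.01 to 9.07 times with g4 (median 4.31).

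Npy (chr6:49822710-49829507, plus strand) encodes a peptide made both by somatostatin cells and by neurogliaform cells. Its HA-negative libraries ran from 24.6 to 78.7 CPM with the empty vector (median 55.6) and from 23.2 to 54.2 with g4 (median 46.0), and its HA-positive libraries from 135 to 317 CPM (median 176) and from 116 to 233 CPM (median 154). Again the fractions did not overlap with either vector. The log2 fold change was 2.12 ± 0.26 with the empty vector (adjusted p = 8.82e-07) and 1.97 ± 0.21 with g4 (adjusted p = 7.42e-08), or 2.05 ± 0.21 without the library of animal 19. Mean levels were 216 ± 69.7 against 49.0 ± 21.0 CPM and 172 ± 49.4 against 44.1 ± 9.98 CPM. The fraction differences of Sst and Npy lay within 1 SE of each other for each vector.

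Cort (chr4:149125034-149126763, minus strand) encodes a close relative of somatostatin that binds the same receptors. In HA-negative nuclei it was near the limit of these libraries, with 15 counts over 7 empty and 10 over 7 g4 libraries, and 3 g4 libraries at 0. In g4 HA-positive nuclei every library held it, from 15.4 to 34.4 CPM with a median of 24.4 (6 to 21 counts a library, 96 in all). In empty HA-positive nuclei it ran from 2.06 to 23.2 CPM with a median of 9.78 (1 to 11 counts, 31 in all). The HA-positive level exceeded the HA-negative level of the same animal in 7 of 7 animals with each vector. With g4 the means were 25.8 ± 6.74 and 3.59 ± 6.11 CPM and the log2 fold change 3.12 ± 0.60 (adjusted p = 8.60e-04). The g4 fractions still overlapped, since the HA-negative library of animal 18 stood at 16.9 CPM. Cort passed the filter on low counts only through the g4 HA-positive group, and it was not tested when animal 19's g4 HA-positive library was left out, without animal 19, 20 or 21, or with all 28 libraries in 1 model and was called in the other 10 of 15 alternatives, 9 of which apply the same filter, so that this count does not bear on stability. With the empty vector it did not pass the filter (means 10.8 ± 7.35 and 4.10 ± 5.16 CPM), and without a filter its log2 fold change was 1.35 ± 0.88 (adjusted p = 0.427).

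Vip (chr10:5639218-5647617, plus strand) marks interneurons that mainly inhibit other interneurons. Its empty HA-positive libraries fell into 2 sets, with 4 libraries at 3.84 to 10.8 CPM (animals 17, 19, 22 and 23, 1 to 3 counts each) and 3 at 67.7 to 89.7 CPM (animals 18, 20 and 21, 24 to 55 counts each). The coefficient of variation was 102% in that group, where counting error alone gives 23.8%, and 24.3% in g4 HA-positive libraries, where it gives 16.4%. These last ran from 40.1 to 94.3 CPM with a median of 68.6, all above the g4 HA-negative range of 14.2 to 37.0 CPM (median 27.1). With g4 the log2 fold change was 1.32 ± 0.28 (adjusted p = 0.00212, higher in 7 of 7 animals), with means of 66.4 ± 16.1 and 26.4 ± 8.42 CPM, and 1.31 ± 0.30 without the library of animal 19. With the empty vector it was 0.35 ± 0.52 (adjusted p = 0.792), with means of 37.2 ± 37.9 and 30.7 ± 12.9 CPM, and higher in 3 of 7 animals. The fraction difference was not shown to differ between vectors, since the test of that difference gave 0.98 ± 0.59 on the log2 scale (adjusted p = 0.996). Under 10000 genes were detected in 2 of the 4 low libraries (animals 17 and 22) and in 1 of the 3 high ones (animal 21).

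**Figure D2:**
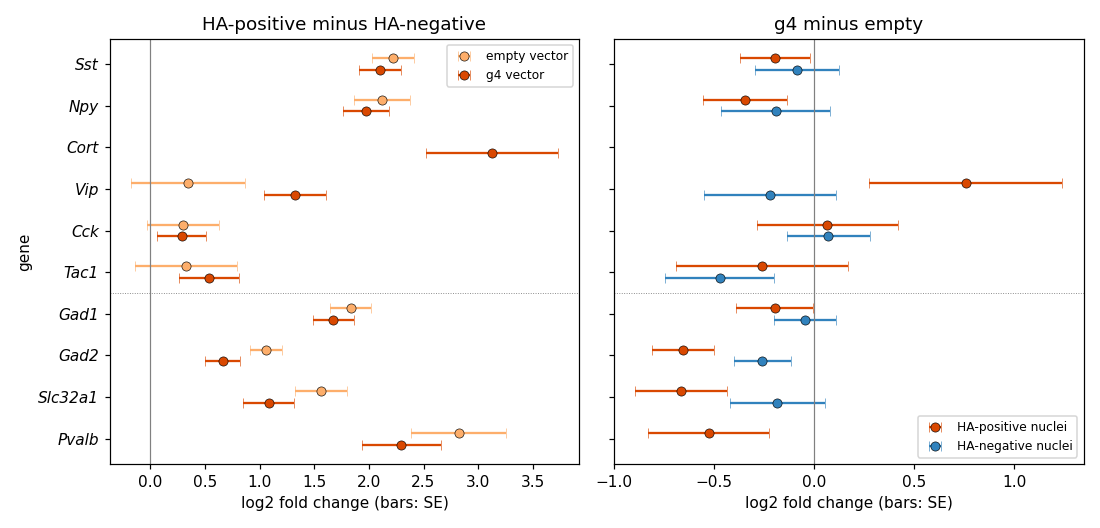
Log2 fold changes with SE for 6 neuropeptide genes and, below the dotted line, 4 reference genes of GABAergic neurons: HA-positive minus HA-negative nuclei for each vector (left) and g4 minus empty for each fraction (right). A gene without a point was not tested in that comparison (Cort in 3 of the 4 shown, Pvalb in 1). On the left, Sst and Npy lie near 2 for both vectors while Cck and Tac1 lie near 0 to 0.5, and on the right Sst, Npy, Cck and Tac1 lie between -0.5 and 0.1.

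Other genes of the Vip subclass were not called higher along with Vip. Of the 4 tested markers of that subclass, 0 were called with g4 (1 lower without the library of animal 19) and 1 was called lower with the empty vector: Penk, the enkephalin precursor, which is also abundant in striatal projection neurons (log2 fold change -2.49 ± 0.43, 31.5 ± 22.7 against 188 ± 109 CPM). By contrast, 5 of 7 tested somatostatin-subclass markers were called higher with the empty vector, among them Elfn1, a synapse organiser (1.73 ± 0.44), Grin3a, an NMDA receptor subunit (1.48 ± 0.33), and Nxph1, a neurexin ligand (1.10 ± 0.30). With g4, 4 of 8 were called higher, including the same 3 at 1.65 ± 0.44, 1.29 ± 0.29 and 1.42 ± 0.23 (6 of 9 without the library of animal 19, with these at 1.85 ± 0.40, 1.36 ± 0.29 and 1.52 ± 0.23). All tested parvalbumin-subclass markers were called higher with both vectors, 5 of 5 and 6 of 6, and 2 of 5 markers of the Lamp5 and Sncg subclasses (Reln at 0.89 ± 0.19 and Cnr1 at 0.72 ± 0.19) were called with the empty vector and 0 of 6 with g4. Of genes common to cortical interneurons, 7 of 7 and 6 of 8 were called higher. Over all genes tested, 3.5% were called higher with the empty and 3.32% with the g4 vector. Among HA-negative libraries alone, 6 of 12 somatostatin, 4 of 10 parvalbumin and 6 of 11 common interneuron genes passed the filter on low counts. Pvalb did not. Markers low in HA-negative nuclei could thus enter through the HA-positive group alone, and these counts give no rate for the lists.

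Genes that most or many interneurons share give the reference for these steps. Gad1, which makes GABA, rose by 1.83 ± 0.18 on the log2 scale with the empty vector and by 1.68 ± 0.18 with g4 (adjusted p = 8.15e-08 and 4.44e-06), and Gad2 by 1.06 ± 0.15 and 0.66 ± 0.16 (1.04e-05 and 0.00731). The vesicular GABA transporter Slc32a1 rose by 1.57 ± 0.24 and 1.08 ± 0.23 (3.55e-05 and 0.00282). Pvalb, the calcium buffer of fast-spiking cells, rose by 2.82 ± 0.43 and 2.30 ± 0.36 (6.10e-05 and 5.12e-05). It did not pass the filter among HA-negative libraries alone and could enter these tests through the HA-positive group, where it is high. Its calls are therefore no independent reference. Without the library of animal 19 the g4 values were 1.76 ± 0.17 for Gad1, 0.73 ± 0.16 for Gad2 and 1.18 ± 0.23 for Slc32a1, all called. Pvalb then stood at 2.46 ± 0.33, also called, with the same limit. Whether any of these steps differs from that of Sst was not tested.

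Cck (chr9:121489824-121495694, minus strand) encodes the peptide of perisomatic basket cells that carry the cannabinoid receptor. Its fractions overlapped with both vectors. Cck stood at 93.1 ± 18.0 CPM in empty HA-negative and 113 ± 62.8 in empty HA-positive nuclei, and ran from 55.1 to 176 CPM (median 96.4) in g4 HA-negative and from 73.3 to 160 CPM (median 103) in g4 HA-positive libraries. The empty HA-positive library of animal 21 stood at 8.46 CPM (3 counts), and the other 6 of that group ran from 61.7 to 183 CPM. The log2 fold change was 0.30 ± 0.33 with the empty vector (adjusted p = 0.690, 95% interval -0.35 to 0.95) and 0.29 ± 0.23 with g4 (adjusted p = 0.579, -0.16 to 0.73), with 5 of 7 animals higher in HA-positive nuclei for each. Without the library of animal 19 the g4 value was 0.39 ± 0.22, and without animal 21 the empty value was 0.45 ± 0.24 (adjusted p = 0.328), neither called. The 4-fold step of Sst lies outside both intervals.

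Tac1 (chr6:7554879-7565834, plus strand) encodes substance P and neurokinin A. It stood at 70.0 ± 26.5 and 88.3 ± 48.4 CPM in empty HA-negative and HA-positive nuclei and at 49.1 ± 23.3 and 74.1 ± 15.4 CPM with g4. In the empty HA-positive library of animal 22 it had 0 counts, which allows up to 6.17 CPM, against 79.3 to 158 CPM in the other 6. The log2 fold change was 0.33 ± 0.47 (adjusted p = 0.780) and 0.54 ± 0.27 (adjusted p = 0.301), with 6 of 7 animals higher for each vector. Without animal 22 the empty value was 0.65 ± 0.28 (adjusted p = 0.184), and leaving out animal 19's g4 HA-positive library the g4 value was 0.57 ± 0.28. Genes of striatal projection neurons, some of which make Tac1, differed between the fractions. Their summed level ran from 868 to 2344 CPM in empty HA-negative and from 140 to 316 CPM in empty HA-positive libraries, and from 278 to 1808 and 139 to 612 CPM with g4, where the highest HA-positive value was again that of animal 19. Of these genes 5 of 5 and 5 of 7 tested were called lower in HA-positive nuclei (6 of 7 with g4 when the library of animal 19 was left out). Among HA-positive libraries alone 2 of these genes passed the filter, against 8 among HA-negative ones, so these counts give no rate for the list. The part of striatal RNA in the Tac1 values was not tested.

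The remaining precursors were close to the detection limit, where 3 counts in a library correspond to 3.28 to 11.5 CPM. Tac2, which encodes neurokinin B, had 6 to 13 counts in all per group and means of 1.38 ± 2.42 (empty HA-negative), 2.48 ± 2.21 (g4 HA-negative), 1.77 ± 3.22 (empty HA-positive) and 3.36 ± 3.96 CPM (g4 HA-positive). Crh, the hormone that starts the stress response and is made in the cortex by part of the Vip and somatostatin cells, stood in the same order at 5.31 ± 6.22, 4.62 ± 5.89, 4.07 ± 3.89 and 12.1 ± 7.97 CPM. In g4 HA-positive nuclei Crh was detected in 6 of 7 libraries, up to 20.9 CPM (50 counts in all), and in empty HA-positive nuclei in 4 of 7, up to 8.43 CPM (12 counts). Without a filter, its difference between the g4 fractions was 1.31 ± 0.70 on the log2 scale (adjusted p = 0.349). Pnoc, the precursor of the opioid-related peptide nociceptin, stood at 7.55 ± 7.71, 4.51 ± 3.65, 15.4 ± 14.4 and 9.88 ± 6.70 CPM. Its empty HA-positive libraries were also uneven, with animals 17, 18 and 19 at 0 to 2.11 CPM and animals 20 to 23 at 19.2 to 31.0 CPM. Tac2 lies at chr10:127724478-127731768 (plus strand), Crh at chr3:19693401-19695396 (minus) and Pnoc at chr14:65400673-65425472 (minus), and no other annotated gene overlaps any of the 9.

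The g4 vector was then compared with the empty vector within each fraction, a comparison that is also one of right with left hemisphere. In HA-positive nuclei no neuropeptide gene was called among the 5 tested (0.0599% of 5011 tested genes were called), and 0 of the 5 had an unadjusted p under 0.05. That number was 1 of 5 with limma voom, with the animal as a block, and without animal 18, 20 or 22. It was 1 of 9 without a filter. Sst differed by -0.20 ± 0.17 on the log2 scale (adjusted p = 0.891, 95% interval -0.54 to 0.14) and Npy by -0.35 ± 0.21 (adjusted p = 0.773, -0.76 to 0.07). Both intervals leave out a change of 2-fold in either direction. Sst was higher with g4 in 3 and lower in 4 of 7 animals, and Npy higher in 2 and lower in 5. Without the g4 library of animal 19 the values were -0.12 ± 0.18 and -0.27 ± 0.22, with Cck at 0.16 ± 0.36, Tac1 at -0.23 ± 0.47 and Vip at 0.74 ± 0.52. The intervals of Cck (0.07 ± 0.35, -0.63 to 0.76) and Tac1 (-0.26 ± 0.43, -1.11 to 0.59) were wider. Without animal 22, whose empty library had no Tac1 count, Tac1 differed by -0.54 ± 0.26 (adjusted p = 0.855). The median of the 5 was -0.20, against -0.01 over all tested genes.

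Vip stood at 66.4 ± 16.1 CPM with g4 and at 37.2 ± 37.9 with empty in HA-positive nuclei, a log2 difference of 0.76 ± 0.48 (adjusted p = 0.810, 95% interval -0.19 to 1.70). Of the 7 animals 5 were higher with g4, namely the 4 whose empty library was low and animal 21. Cort was higher with g4 in 7 of 7 animals, with means of 25.8 ± 6.74 and 10.8 ± 7.35 CPM, but the groups overlapped and it did not pass the filter on low counts. Without a filter its log2 difference was 1.23 ± 0.64 (adjusted p = 0.437), so that it is not called. Crh had 2.98 times the mean level with g4, from 50 against 12 counts, higher in 5 of 7 animals (log2 difference without a filter 1.54 ± 0.91, adjusted p = 0.524). Pnoc had 0.641 times the mean level with g4 and was higher in 2 of 7 animals (-0.60 ± 0.74, adjusted p = 0.780). The number of detected genes moved with these groups: 3 of the 7 empty but 1 of the 7 g4 HA-positive libraries detected under 10000 genes. That number is not the same as depth. The empty HA-positive library of animal 23 had the fewest counts (248612) but 10644 detected genes. Without the 4 libraries under 10000 genes Vip differed by 0.46 ± 0.54 (adjusted p = 0.887), which is no check on depth. The difference was 1.30 ± 0.52 with the animal as a block (adjusted p = 0.805) and 1.24 ± 0.51 without animal 20 (adjusted p = 0.722). Vip was not called under any alternative run (log2 differences 0.46 to 1.30).

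**Figure D3:**
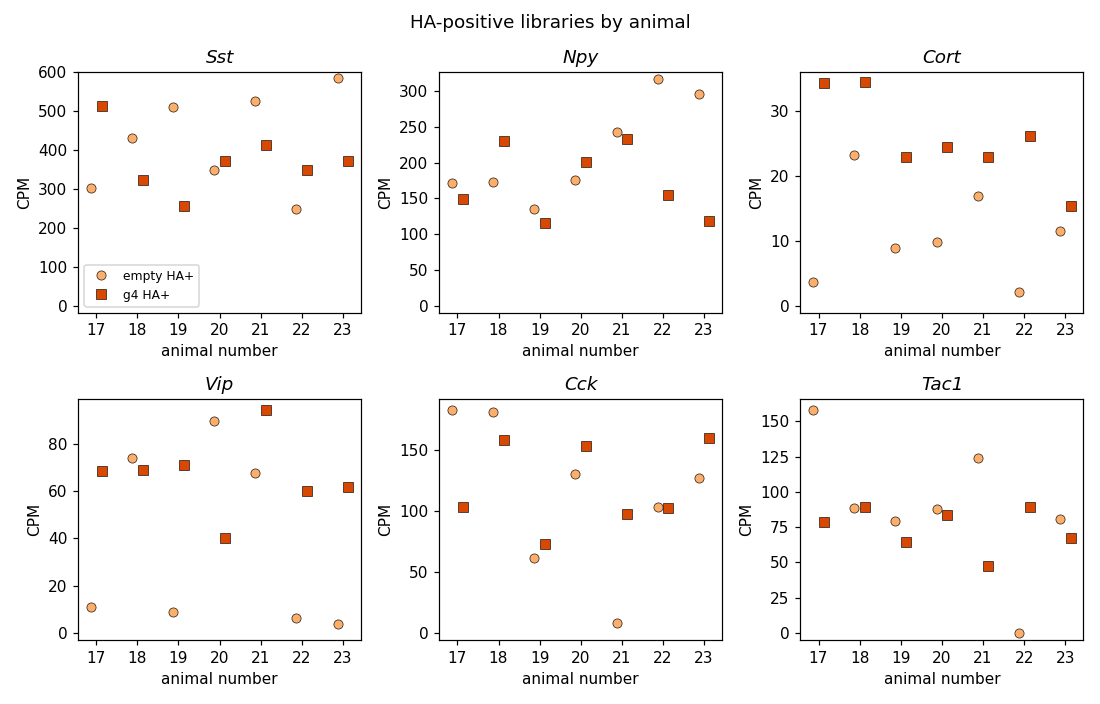
Level in CPM of 6 neuropeptide genes in the 2 HA-positive libraries of each animal, with the empty vector (circles) and with g4 (squares). Cort lies higher with g4 in 7 of 7 animals, Vip is under 11 CPM with the empty vector in animals 17, 19, 22 and 23, and Sst and Npy go either way.

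In HA-negative nuclei no gene of 6262 tested was called by edgeR, or 0% (DESeq2 called 1 gene, which was not a neuropeptide gene). The log2 differences between g4 and empty were -0.09 ± 0.21 for Sst, -0.19 ± 0.27 for Npy, -0.22 ± 0.33 for Vip, 0.07 ± 0.21 for Cck and -0.47 ± 0.27 for Tac1, each with an adjusted p of 0.999 and unadjusted p from 0.0895 to 0.735. In a model of all 28 libraries the step from empty to g4 was not shown to differ between the fractions for any of the 5 tested. The values were -0.09 ± 0.28 for Sst, -0.13 ± 0.33 for Npy, 0.98 ± 0.59 for Vip, 0.00 ± 0.44 for Cck and 0.24 ± 0.57 for Tac1, and 0 of 7197 genes, or 0%, were called. Leaving out animal 19's g4 HA-positive library these were -0.04, -0.06, 0.95, 0.08 and 0.25, none called. Without a filter, Cort gave 1.68 ± 1.06 (adjusted p = 0.788) and Crh 1.72 ± 1.17 (adjusted p = 0.839).

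Genes that miR-124 represses directly often carry its seed match in the 3′ UTR. The longest annotated 3′ UTRs of the 9 genes, 156 to 1234 bases long, were searched for GTGCCTT and TGCCTTA, and none held either sequence, while 20.6% of 21173 genes with a 3′ UTR held at least 1. The absence of these letters says nothing about indirect effects.

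The reference genes of GABAergic neurons gave the background for the g4 comparison. In HA-positive nuclei Gad2 stood at 337 ± 84.3 CPM with g4 and 527 ± 103 with empty, lower in 7 of 7 animals (-0.66 ± 0.16, adjusted p = 0.162), and Slc32a1 at 130 ± 46.7 and 205 ± 53.5 CPM (-0.66 ± 0.23, adjusted p = 0.619). Neither was called, although the unadjusted p by edgeR was 2.31e-04 for Gad2 and 0.00712 for Slc32a1. Gad1 (-0.20 ± 0.19, unadjusted p = 0.315) and Pvalb (-0.53 ± 0.30, unadjusted p = 0.0909) were not called either. The medians of the tested genes of the somatostatin, parvalbumin, Vip, Lamp5 and Sncg, and common interneuron lists were -0.17, -0.15, -0.24, -0.48 and -0.45, and those of the excitatory, astrocyte and oligodendrocyte lists 0.33, 0.61 and 1.84, with 0 genes called in each. Without the library of animal 19 they were 0.03, -0.08, -0.21, -0.40 and -0.36, and 0.29, 0.64 and 0.76. In the same order the lists had 9, 9, 3, 6 and 7, and 10, 5 and 2 tested genes in both fits. The oligodendrocyte medians thus rest on 2 genes. The part of this composition in the peptide values was not tested.

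Peptides need processing enzymes and receptors. Of 8 processing genes 6 were tested in each fraction comparison. Pam, the enzyme that amidates the carboxyl end that Npy, Vip, Cck, Crh and the tachykinins need for activity, was called higher in HA-positive nuclei with both vectors, at 264 ± 49.5 against 155 ± 28.6 CPM with empty (0.79 ± 0.16, adjusted p = 0.00173) and 294 ± 66.8 against 157 ± 27.3 CPM with g4 (0.90 ± 0.15, adjusted p = 1.53e-04). Pcsk2, a convertase that cuts precursors at paired basic residues, was called lower with g4 (-0.67 ± 0.13, adjusted p = 0.00119, 184 ± 35.2 against 292 ± 22.1 CPM), at 189 ± 53.7 against 260 ± 48.3 CPM with empty, where it was not called. Without the library of animal 19 the g4 values were 0.97 ± 0.15 for Pam and -0.71 ± 0.14 for Pcsk2, both called. Pcsk1, Cpe, Scg5 and Pcsk1n were not called in either comparison. None of the processing genes was called between vectors. Of 19 receptor genes 1 passed the filter between fractions, the brain receptor of cholecystokinin Cckbr, at 52.1 ± 17.4 and 34.9 ± 25.3 CPM in empty HA-negative and HA-positive nuclei and 52.9 ± 13.2 and 49.4 ± 21.4 CPM with g4, not called. The other 18 had means of at most 27.2 CPM in any group, reached by Npy1r, a cortical receptor of neuropeptide Y. Of 22 other neuropeptide precursors and binding proteins, at most 2 were tested between fractions. Crhbp, the binding protein of Crh and a marker of somatostatin cells, did not pass the filter and is named after its values were seen. It stood at 6.31 ± 6.81 and 27.2 ± 20.8 CPM in HA-negative and HA-positive nuclei, and at 3.81 ± 4.27 and 23.7 ± 12.3 CPM with g4.

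The tissue is labelled motor cortex, and markers of several other cell types differed between the fractions along with the peptides. Of oligodendrocyte genes 7 of 7 tested with the empty and 6 of 8 with the g4 vector were called lower in HA-positive nuclei, and of microglia genes 5 of 5 and 3 of 5. Leaving out animal 19's g4 HA-positive library the g4 counts were 9 of 9 and 5 of 5. Over all genes tested, 3.5% were called lower with the empty and 3.08% with the g4 vector. Among HA-positive libraries alone 2 oligodendrocyte and 0 microglia genes passed the filter, against 9 and 7 among HA-negative ones. Such genes could thus enter the tests through the HA-negative group alone, and these counts give no rate for the lists. Summed oligodendrocyte genes ran from 1280 to 2790 CPM in HA-negative libraries and from 53.8 to 131 CPM in empty HA-positive ones, where the microglia markers Cx3cr1 and P2ry12 were at 0. Of excitatory neuron genes 3 of 12 and 2 of 13 were called lower, with summed levels of 1609 to 2445 CPM in HA-negative and 986 to 2026 CPM in HA-positive libraries. Astrocyte genes differed less, with 1 of 5 and 0 of 5 called lower and medians of -0.04 and 0.11 on the log2 scale, although the median summed level was 807 CPM in empty HA-positive against 1464 CPM in empty HA-negative libraries (1451 and 1461 CPM with g4). The part of this composition in the Sst, Npy, Cort and Vip differences was not tested.

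Profiles over all 28 libraries were compared by the root mean square difference of log2(CPM + 1) between genes, each centred on its own mean, over 7197 genes. The genes closest to Sst were Kcnc1, a fast potassium channel (0.51, where the median over all genes was 1.40), Lgi2 (0.52) and Erbb4, the neuregulin receptor of interneurons (0.57). Genes close to Npy included Gad1 (0.56) and Rab3b, a vesicle GTPase (0.57, median 1.39). Cck was closest to Otub1 (0.47), Add2 (0.49) and Camta2 (0.50, median 1.06), and Tac1 to Pcp4l1 (0.64), Atp6v1g1 (0.69) and Jade1 (0.70, median 1.48). Vip had no close neighbour by this measure, with Vma21 at 0.80, Armcx1 at 0.87 and Washc5 at 0.88 (median 1.31). The points share library and depth, and the differences include counting error.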

How the data were processed

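RNA of FANS-sorted nuclei (sorted by fluorescence) was prepared from tissue fixed with 1% PFA, and libraries were made with a QIAseq FastSelect kit from 40 to 2000 pg of RNA, per the labels' protocols. The authors deposited unnormalized counts for each gene and library, named as such in the labels and all whole numbers. The genome build was GRCm 38 per the submitters' processing notes, and the sources used here name no aligner, counter or strandedness, nor say whether molecular identifiers were used. Empty cells were read as a count of 0, and 1 of 41550 rows, which has no gene name, was dropped. Samples were tied to columns by their descriptions, and groups and animal numbers come from the titles. For animals 21 to 23 the column name holds a number 1 above the one in the title used here.

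Genes were tested with edgeR 4.0.16 (glmQLFit, robust, two-sided) in R 4.3.3 after filterByExpr by group (minimum count 10, minimum total 15) and TMM scaling, in 5 comparisons. Levels in CPM use counts in genes that pass the filter over all 4 groups, times the TMM factor. The pipeline was run on simulated counts that gave all genes the same relative spread beyond counting error and no animal effect. That run does not show how the tests do on genes as uneven between libraries as Vip. Floors (3 counts) cover counting error only. Confidence intervals are at 95%, from a normal quantile and an SE derived from the log2 fold change and F statistic of the edgeR test. That SE includes the spread between libraries. The intervals can be narrower than the test implies: that of Tac1 between the g4 fractions was 0.007 to 1.07 at an unadjusted p of 0.055 by edgeR. Gene positions and exon lengths come from GENCODE release M21 (41474 of 41549 identifiers matched), promoters from RefSeq for 7 of the 9 genes. Same-numbered libraries come from the same animal, and their deviations from the group means correlated at -0.10 to 0.13 over genes. The 9 genes, the 16 gene lists and the alternatives were chosen with earlier results of these data known. Named were all 9 genes, the 3 genes with the largest change among those called in each list, reference genes Gad1, Gad2, Slc32a1 and Pvalb, and the 3 genes of most similar profile for members of at least 20 CPM, some of which are not reported here. Alternatives used other size factors, DESeq2 1.42.0, limma 3.58.1 voom, no filter, the animal as a block, libraries left out, and CPM without the TMM factor.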

Additional observations from a re-analysis of the deposited data

Results flagged for a closer look

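Each of the 9 genes was checked in each of the 4 groups for a library that stood far from the other 6, and 4 of the 36 checks found one. Chance finds about 1 in 20 for normally distributed values. That rate was not checked for counts as low as those of Cort and Tac2, so no excess over chance is read from it. Cort stood out in both HA-negative libraries of animal 18, at 15.7 CPM with the empty vector (8 counts, next highest 2.73 CPM) and 16.9 CPM with g4 (5 counts, next highest 4.45 CPM). Npy was lowest in the g4 HA-negative library of animal 23, at 23.2 CPM (14 counts), with the next at 42.4 CPM. Tac2 was highest in the g4 HA-negative library of animal 21, at 7.07 CPM (5 counts), with the next at 2.97 CPM.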

How the results depend on the processing

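Sst and Npy were called higher in HA-positive nuclei under all 14 alternatives with the empty vector (log2 fold changes 2.05 to 2.38 and 1.94 to 2.22) and all 15 with g4 (1.99 to 2.23 and 1.87 to 2.09). Vip was called under all 15 with g4 (1.20 to 1.52, adjusted p 1.25e-04 to 0.0478), while Cort failed the filter under 5 of 15 and had log2 fold changes of 2.83 to 3.94 under the others, which says nothing of its stability. No member was called between vectors under any alternative run. With the replicate block (animal), 2 and 4 members were called between fractions and 0 between vectors, and it changed no call of a member.

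The counts of all called genes moved more. Between vectors in HA-positive nuclei, 3 genes were called, against 11 with DESeq2, 1 with limma voom, 28 without a filter, 1 with the replicate block, 0 without libraries under 10000 detected genes, 8 with all 28 libraries in 1 model, and 1 (without animal 18) to 5 (without animal 19's g4 HA-positive library) with 1 animal or library left out. In HA-negative nuclei 0 were called, and 1 with DESeq2. Between fractions with the empty vector (388 called), it was 661 without a filter, 612 with all libraries in 1 model and 251 (without animal 19) to 371 with 1 animal left out. With g4 (401 called), leaving out 1 animal or library gave 218 (without animal 20; 224 without animal 21 and 241 without animal 22) to 507. The test of the difference between fractions called 0, and 3 without a filter.

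The 401 values of single genes under alternatives include CPM levels without the TMM factor, which cannot change sign. Of the log2 fold changes among them 20 reversed sign, all of them uncalled, and the cause was not tested. Between vectors in HA-positive nuclei, Tac1 was 0.67 with limma voom, and Cck -0.15 without libraries under 10000 genes and -0.092 (without animal 21) to 0.24 with 1 left out. In HA-negative nuclei, Cck was -0.034 with limma voom, and with 1 left out Cck ran from -0.067 (without animal 18) to 0.18, Sst from -0.34 to 0.0055 (without animal 20) and Npy from -0.34 to 0.086 (without animal 23). Between fractions with the empty vector, Cck was -0.0088 and Tac1 -0.58 with limma voom, and Vip was -0.12 with the replicate block and -0.075 (without animal 20) to 0.63 with 1 left out. For the difference between fractions, Cck was 0.33 with limma voom, 0.015 without a filter, 0.13 with the replicate block and -0.23 to 0.21 with 1 left out, where Sst ran from -0.30 to 0.18 (without animal 21) and Tac1 from -0.13 (without animal 22) to 0.57.

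Depth limits Tac2, Crh and Pnoc, which did not pass the filter in any comparison.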
